A study of Arabidopsis thaliana with 16 samples.

Results

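The 9 genes described here belong to the type I MADS-box family of transcription factors: AGL28, AGL61, AGL62, AGL80, AGL82, AGL89, AGL92, AGL96 and the gene named only by its locus, AT4G36590. They were taken as the probe sets that name one of these genes in the annotation of the array. Each gene matched 1 probe set that names no other gene, so 9 of the 22746 Arabidopsis probe sets are described, and all 9 passed the filter on low signal. RNA was measured on 16 Affymetrix ATH1 arrays from seeds of untreated Ws-0 plants at the heart stage of the embryo. Plants were 38 to 46 days old, siliques were 1.2 to 1.5 cm long, and embryos measured 52 to 85 µm. Laser capture microdissection, in which a laser frees chosen areas from a section, gave chalazal endosperm and chalazal seed coat with 3 arrays each. It gave micropylar endosperm, peripheral endosperm, embryo proper, seed coat and whole seeds with 2 arrays each. All groups share genotype, stage and growth conditions, so the comparisons are between places in the seed. The arrays of these places also differ in technical measures, given below. Each array began with 5 to 6 ng of RNA that was amplified before hybridisation. The labels call the samples biological replicates but do not say whether regions came from the same plants, so p-values speak only to the spread among these arrays.

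The endosperm is the nourishing tissue that forms, beside the embryo, at double fertilisation. In Arabidopsis it first divides as a syncytium of free nuclei and then forms cells in a wave that starts near the embryo at the micropylar pole and reaches the chalazal pole, next to the maternal supply, last. Type I MADS-box proteins bind DNA as dimers, and many of their genes are active in the female gametophyte and the endosperm and little elsewhere in the plant. They are sorted into the subgroups M-alpha, M-beta and M-gamma, and dimers commonly pair members of different subgroups. AGL62 holds back endosperm cellularisation: its loss makes the endosperm form cells too early, and the Polycomb complex that contains FIS2 represses it. AGL61, also called DIANA, and AGL80 act together in the central cell, from which the endosperm arises.

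The deposited values are signal intensities, scaled by the authors so that the trimmed mean of every array lies between 500.04 and 500.08. Array medians ranged from 100.01 to 185. As a measure of background, the 95th percentile of 27 Bacillus control probe sets was taken on each array. This bound ran from 54.8 to 161 on the chalazal endosperm arrays and from 31.1 to 137 on the other arrays, and between 44.7% and 71.1% of probe sets exceeded it. The chalazal endosperm arrays stood apart: they correlated with each other at 0.822 to 0.856 and with the other groups at 0.435 to 0.656, and the share of total signal held by the 100 brightest probe sets was 18.4% to 22.7%, against 12.2% to 16.9% on the others. The ratio of 3′ to 5′ signal of the GAPDH control, a measure of RNA integrity, was 3.49 to 24.7 on the chalazal endosperm arrays and 3.56 to 19.5 on the others. The mean signal of the Cre hybridisation control was 193622 to 269817 on chalazal endosperm arrays and 197800 to 242452 on chalazal seed coat arrays. It was 92052 to 148558 on the other dissected arrays, and 122474 and 199875 on whole seed arrays. For the chalazal regions, place in the seed and these differences among arrays cannot be told apart. The part that they play in the results below was not tested.

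The region labels were set against marker genes fixed as lists, of which few were named on the array. Of 13 seed coat markers 4 were named (BAN and DFR of flavonoid synthesis, BETA-VPE and DELTA-VPE, which are vacuolar proteases). Their summed signal was 622 to 1110 in chalazal endosperm, 2833 to 2874 in micropylar endosperm and 2746 to 6642 in peripheral endosperm, against 20126 to 30996 in chalazal seed coat and 56897 to 58593 in seed coat. BAN, DFR and BETA-VPE each had higher means in both seed coat regions than in any endosperm region. DELTA-VPE did not: it averaged 272 in chalazal seed coat, against 321 in chalazal, 2097 in micropylar and 1656 in peripheral endosperm. Its mean in seed coat was 22442. Of 11 embryo markers 4 were named (PHV, CR4, LHW and BBM). Their sum was 223 to 321 in chalazal endosperm, 566 to 2084 in micropylar endosperm and 198 to 527 in peripheral endosperm, against 4574 to 4720 in embryo proper. It was also 2303 to 3706 in chalazal seed coat, where LHW averaged 2607, against 1683 in embryo proper. PHV, CR4 and BBM had their highest means in embryo proper. In chalazal endosperm none of these 4 embryo markers was above the background bound on all 3 arrays, while 3 of the 4 seed coat markers were. Of 7 general endosperm markers 2 were named, and only IKU1, which promotes endosperm growth, was above the bound on all arrays of every group, so it does not single out endosperm here. No marker was listed at 0.

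**Figure D1:**
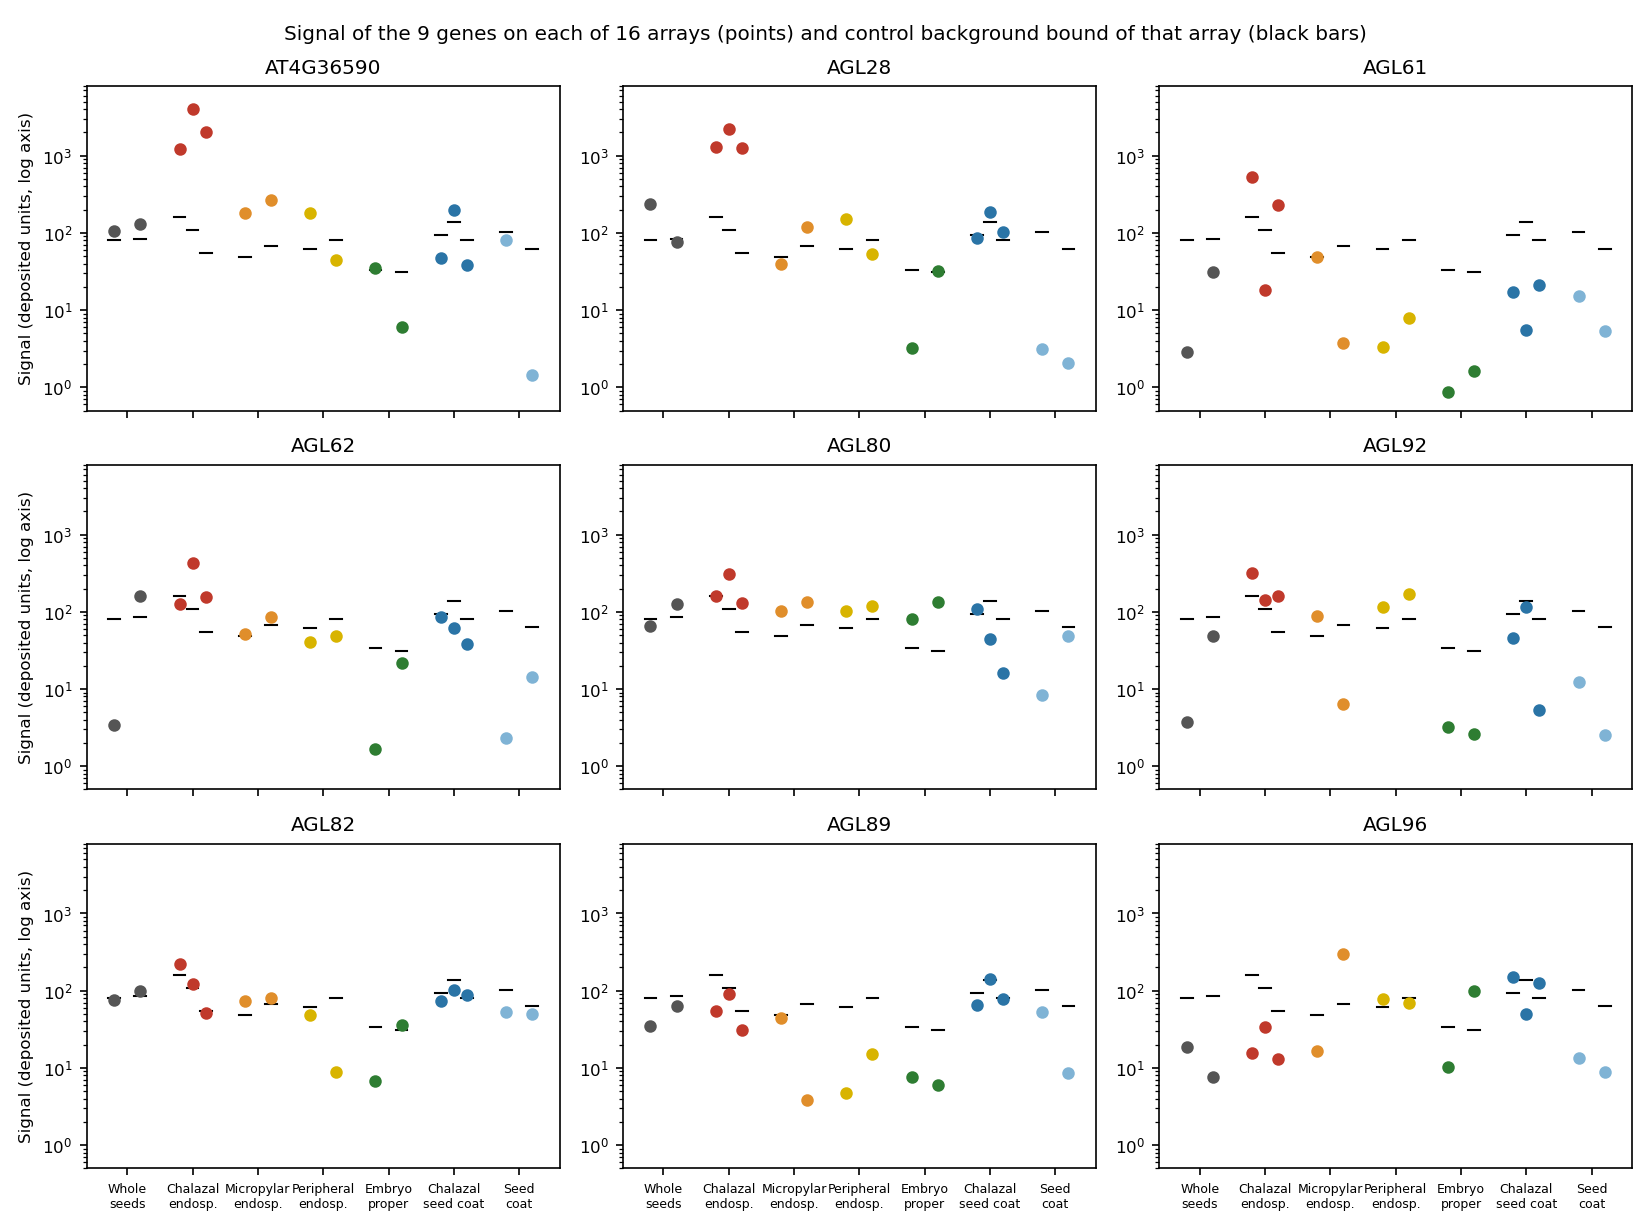
Deposited signal (log axis) of each of the 9 genes on the 16 arrays, 1 point per array, by group; black bars mark the background bound of the same array. AT4G36590 and AGL28 reach 1211 to 4085 and 1257 to 2204 on the 3 chalazal endosperm arrays, and the points of the other genes lie nearer the bars.

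AT4G36590 read 1211, 4085 and 2053 in chalazal endosperm, 179 and 264 in micropylar endosperm, 179 and 44.7 in peripheral endosperm, and 35.1 and 5.99 in embryo proper. In the maternal regions it read 47.4, 200 and 37.9 in chalazal seed coat and 81.1 and 1.43 in seed coat, and whole seeds gave 105 and 130. The 3 chalazal endosperm arrays were thus above all 13 others, and of the 9 genes it was the only one above the background bound on both whole seed arrays. All tests used limma's moderated linear model of log2(signal + 30.2143) over all 19475 tested probe sets, two-sided with Benjamini-Hochberg adjustment within each comparison, and a call is an adjusted p below 0.05. Chalazal endosperm minus the mean of the other 2 endosperm regions was 3.91 ± 0.58 on the log2 scale (SE, adjusted p = 4.57e-06 by limma). As 1 of the 4 arrays on the low side was under its bound, this is the model's difference and no exact size. The order of the compartment means was chalazal, micropylar and peripheral endosperm, chalazal seed coat, seed coat and embryo proper. Only the first step in that order passed the test, by 3.41 ± 0.69 (adjusted p = 3.93e-04 by limma). Both seed coat arrays were under their bounds, so the fold of chalazal endosperm over seed coat is a bound, at least 25.6-fold higher (adjusted p = 2.78e-07 by limma).

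AGL28, of the M-alpha subgroup that also holds AGL62, had the same leading region. Its signal was 1291, 2204 and 1257 in chalazal endosperm, 39.8 and 118 in micropylar endosperm, 150 and 53.2 in peripheral endosperm, and 3.26 and 32 in embryo proper. The maternal regions gave 87.2, 184 and 103 in chalazal seed coat and 3.15 and 2.09 in seed coat, and whole seeds 234 and 76.0. Again all 3 chalazal endosperm arrays exceeded the other 13. Chalazal minus other endosperm was 4.07 ± 0.52 (log2, SE, adjusted p = 4.30e-07 by limma). As micropylar endosperm replicate 1 and peripheral endosperm replicate 2 were under their bounds, this is the model's difference and no exact size. By size of this difference AGL28 ranked 447th and AT4G36590 488th among the 19475 tested probe sets. The second highest mean was that of chalazal seed coat, below chalazal endosperm by 3.81 ± 0.55 (adjusted p = 3.32e-06 by limma), and the steps from there to peripheral endosperm, micropylar endosperm, embryo proper and seed coat did not pass the test. Chalazal endosperm was at least 18.1-fold higher than seed coat, where both arrays were under their bounds (adjusted p = 1.45e-08 by limma).

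AGL61, the M-alpha partner of AGL80 in the central cell, was near or under background on most arrays. It read 523, 18.3 and 231 in chalazal endosperm, 49.1 and 3.78 in micropylar endosperm, 3.34 and 7.90 in peripheral endosperm, and 0.872 and 1.61 in embryo proper. Signals were 17.2, 5.61 and 21.2 in chalazal seed coat, 15.2 and 5.33 in seed coat, and 2.87 and 31.1 in whole seeds. The chalazal endosperm group therefore overlapped micropylar endosperm and chalazal seed coat, because its replicate 2 was under its bound while the other 2 were above theirs. The gene was above the bound on 3 of the 16 arrays. It passed the filter on low signal, which asks for 2 arrays over their 40th percentile, only through chalazal endosperm replicates 1 and 3. Its calls that involve chalazal endosperm are therefore not independent of the filter, and they held without the filter as well (2.22, adjusted p = 0.00310 by limma, for chalazal minus other endosperm). Chalazal minus other endosperm was 2.42 ± 0.60 (log2, SE, adjusted p = 0.00207 by limma). Against the regions whose arrays were all under the bound, chalazal endosperm was at least 2.29-fold higher than peripheral endosperm, at least 4.19-fold higher than embryo proper, at least 1.95-fold higher than chalazal seed coat and at least 2.22-fold higher than seed coat, with adjusted p between 0.00125 and 0.00504 by limma.

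AGL62, the repressor of cellularisation, read 125, 433 and 156 in chalazal endosperm, 51.9 and 85.0 in micropylar endosperm, 41.0 and 48.3 in peripheral endosperm, and 1.67 and 21.7 in embryo proper. Chalazal seed coat gave 84.6, 62.4 and 37.8, seed coat 2.33 and 14.3, and whole seeds 3.40 and 159. The chalazal endosperm arrays lay above the other endosperm arrays without overlap, but the array at 125 was under its bound of 161. Both micropylar endosperm arrays, and neither peripheral endosperm array, were above their bounds. Chalazal minus other endosperm was 1.75 ± 0.57 (log2, SE, adjusted p = 0.0171 by limma) and 1.25 (adjusted p = 0.115 by limma) without chalazal endosperm replicate 2. The step from chalazal to micropylar endosperm, the next in order, was 1.55 ± 0.68 and did not pass (adjusted p = 0.0865 by limma). Chalazal endosperm was at least 2.85-fold higher than peripheral endosperm, at least 5.21-fold higher than embryo proper, at least 2.43-fold higher than chalazal seed coat and at least 2.76-fold higher than seed coat, with adjusted p between 9.63e-04 and 0.0317 by limma.

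AGL80, the M-gamma partner of AGL61, was spread more evenly over the products of fertilisation. It read 159, 305 and 131 in chalazal endosperm, 104 and 134 in micropylar endosperm, 103 and 118 in peripheral endosperm, and 81.8 and 134 in embryo proper. Maternal tissue gave 110, 43.9 and 16.3 in chalazal seed coat and 8.29 and 48.4 in seed coat, and whole seeds 65.1 and 128. It was the only one of the 9 genes above the bound on both embryo proper arrays, and 1 of 3 chalazal seed coat arrays and no seed coat array was above. Chalazal minus other endosperm was 0.86 with a 95% interval of -0.23 to 1.95, and endosperm minus embryo proper was 0.56 with an interval of -0.59 to 1.71. Neither passed the test, and both intervals include 0. Endosperm minus the mean of both seed coat regions was 1.55 ± 0.42 (log2, SE, adjusted p = 0.00425 by limma). Chalazal endosperm was at least 2.52-fold higher than seed coat (adjusted p = 0.00482 by limma).

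AGL92, also of the M-gamma subgroup, read 319, 143 and 159 in chalazal endosperm, 89.3 and 6.45 in micropylar endosperm, 115 and 171 in peripheral endosperm, and 3.20 and 2.61 in embryo proper. Chalazal seed coat gave 46.1, 116 and 5.27, seed coat 12.2 and 2.51, and whole seeds 3.73 and 48.6. It was above the bound on all 3 chalazal and both peripheral endosperm arrays, on 1 micropylar endosperm array, and on no array of any other group. Peripheral endosperm was second in order, 0.67 ± 0.67 below chalazal endosperm (log2, SE), a step that did not pass (adjusted p = 0.474 by limma). Chalazal minus other endosperm was 1.35 with a 95% interval of 0.20 to 2.50 and missed the threshold (adjusted p = 0.0587 by limma). Peripheral endosperm was at least 3.10-fold higher than embryo proper (adjusted p = 0.0352 by limma) and at least 1.65-fold higher than seed coat (adjusted p = 0.0286 by limma). Chalazal endosperm was at least 4.93-fold higher than embryo proper (adjusted p = 4.05e-04 by limma).

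AGL96, also of the M-gamma subgroup, alone among the genes described had a negative chalazal minus other endosperm difference, which did not pass the test. It read 15.7, 33.4 and 13 in chalazal endosperm, all under the bound, 16.7 and 299 in micropylar endosperm, 76.9 and 68.5 in peripheral endosperm, and 10.2 and 97.9 in embryo proper. Chalazal seed coat gave 150, 49.7 and 126, seed coat 13.4 and 8.74, and whole seeds 18.5 and 7.63. Replicates of micropylar endosperm and of embryo proper lay on both sides of the bound. Its highest mean was in micropylar endosperm, and none of its 15 differences between compartments passed the test. Chalazal minus other endosperm was -0.91 with a 95% interval of -2.09 to 0.28 (adjusted p = 0.222 by limma).

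The M-beta genes AGL82 and AGL89 stayed close to background. AGL82 read 222, 122 and 51.1 in chalazal endosperm, 72.7 and 80.4 in micropylar endosperm, 48.7 and 8.94 in peripheral endosperm, and 6.78 and 36.3 in embryo proper. Chalazal seed coat gave 72.9, 103 and 87.5, seed coat 53.0 and 49.5, and whole seeds 75.9 and 99.8. Of its differences between compartments 2 passed the test: chalazal endosperm was at least 1.75-fold higher than peripheral endosperm (adjusted p = 0.0333 by limma) and 2.01 ± 0.59 above embryo proper on the log2 scale (SE, adjusted p = 0.00830 by limma). AGL89 read 54.8, 90.3 and 30.8 in chalazal endosperm, 43.7 and 3.80 in micropylar endosperm, 4.78 and 15 in peripheral endosperm, and 7.68 and 6.03 in embryo proper. Chalazal seed coat gave 65.0, 144 and 78.9, seed coat 53.7 and 8.61, and whole seeds 34.9 and 63.8. AGL89 was above the bound on 1 array, of chalazal seed coat, the group with its highest mean, and passed the filter on low signal only through 1 array of that group and 1 of chalazal endosperm. Its calls against embryo proper are therefore not independent of the filter. Embryo proper was lower than chalazal seed coat by at least 1.98-fold (adjusted p = 0.0309 by limma). No fold is given for its call between chalazal endosperm and embryo proper (adjusted p = 0.0280 by limma), since all 5 arrays were under their bounds.

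By region, 3 of the 9 genes (AGL28, AGL92 and AT4G36590) were above the bound on all 3 chalazal endosperm arrays, while 34.3% of all Arabidopsis probe sets were. In micropylar endosperm 4 were above on both arrays (AGL62, AGL80, AGL82 and AT4G36590; 55.7% of all), and in peripheral endosperm 2 were (AGL80 and AGL92; 53.4% of all). None of the 18 values in seed coat was above the bound, whereas 51.7% of all probe sets were above on both of its arrays. In chalazal seed coat 8 of 27 values were above, and no gene was above on all 3 arrays (44.5% of all). In bulk samples of this kind, fewer cells that express a gene and less RNA per cell cannot be told apart.

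**Figure D2:**
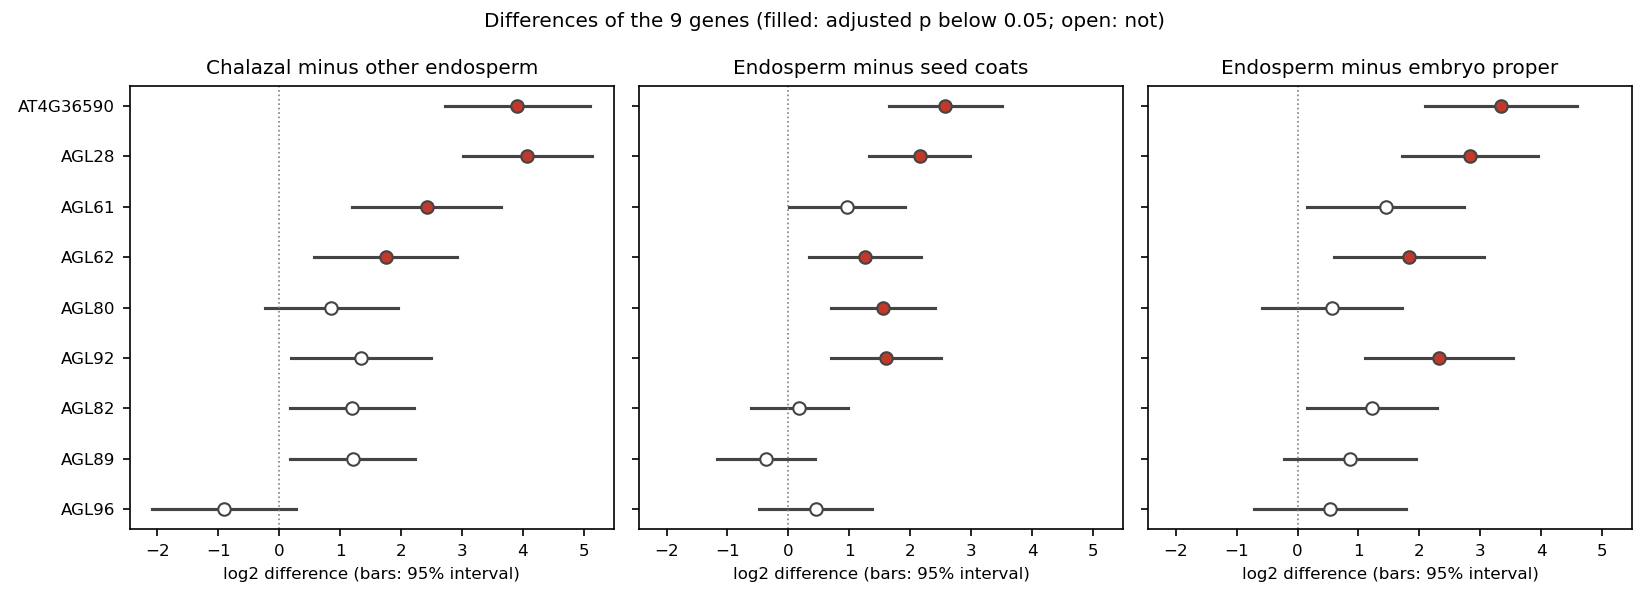
Log2 differences of the 9 genes for chalazal minus other endosperm, endosperm minus seed coats and endosperm minus embryo proper, with 95% intervals; filled points have an adjusted p below 0.05 by limma. AGL28 and AT4G36590 lie at 4.07 and 3.91 in the first comparison, and AGL96 is the only gene there with a difference below 0.

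The comparison of chalazal with other endosperm concerns poles of 1 tissue. Higher in chalazal endosperm were 4 of the 9 genes, the M-alpha genes AGL28, AGL61 and AGL62 and AT4G36590, and none was lower. AGL61 entered the test only through chalazal endosperm, so its call is a description and adds no support to the count. Over all tested probe sets 19.6% were called higher and 18.0% lower. The members' median difference was 1.35, against 0.24 over all tested probe sets. AGL82, AGL89 and AGL92 had unadjusted p below 0.05 and adjusted p of 0.0584 to 0.0587 by limma. Without adjustment 7 of 9 thus passed, when 46.4% of all tested probe sets did. These 7 include AGL61 and AGL89, which did not pass the filter without the chalazal endosperm arrays. Neither adds support to this count or to the median above. Without centring of the arrays the median over all probe sets moved by -0.27 and that of the members was 1.08. The called probe sets then split into 2776 higher and 4269 lower, against 3812 and 3509 with centring. Quantile normalization gave 3211 and 3778. The compartment with the highest mean was chalazal endosperm for 7 of the 9 genes, against 33.5% of all tested probe sets. AGL61 is 1 of these 7 and adds no support here either. On the centred scale all 3 chalazal endosperm arrays were above all 13 others for 5 genes (AGL28, AGL62, AGL80, AGL92 and AT4G36590), against 11.4% of all tested probe sets. On the deposited scale this held for 2 of them, AGL28 and AT4G36590. There the lowest chalazal endosperm array was 125 for AGL62, against 159 on 1 whole seed array, 131 for AGL80, against 134 on 1 micropylar endosperm array, and 143 for AGL92, against 171 on 1 peripheral endosperm array. When each array was left out, the number called higher ranged from 3 to 6. It was 3 without chalazal endosperm replicate 1, where AGL61 was not tested, and without chalazal endosperm replicate 2, where AGL62 lost its call. It was 6 without micropylar endosperm replicate 1, where AGL96 was also called lower, at -1.54 (adjusted p = 0.0440 by limma).

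Against the seed coats, the endosperm is set beside maternal tissue. The mean of the 3 endosperm regions was higher for 5 of the 9 genes and lower for none, when 19.8% of all tested probe sets were called higher and 15.4% lower. AT4G36590 was higher by 2.58 ± 0.45 (adjusted p = 4.94e-05), AGL28 by 2.16 ± 0.40 (adjusted p = 1.14e-04) and AGL80 by 1.55 ± 0.42 on the log2 scale (SE, limma). AGL92 was at least 1.32-fold higher (adjusted p = 0.00498 by limma) and AGL62 at least 1.16-fold higher (adjusted p = 0.0287 by limma), since none of the 5 seed coat arrays was above its bound for either gene. The members' median was 1.26, against 0.19 over all tested probe sets. AGL61 and AGL89, which did not pass the filter without the chalazal endosperm arrays, add no support to this median. For none of the 9 genes did all 7 endosperm arrays exceed all 5 seed coat arrays, which held for 4.02% of all tested probe sets. The calls leaned on the chalazal endosperm arrays: with micropylar and peripheral endosperm alone, only AGL80 of the 7 genes still tested remained called, at 1.24 (adjusted p = 0.0358 by limma), and AT4G36590 had 1.25 (adjusted p = 0.0509 by limma). Without centring, 2886 probe sets were called higher and 3651 lower, against 3852 and 2996 with it. AGL62 then lost its call (adjusted p = 0.0718 by limma), and lost it also with an offset of 1 (adjusted p = 0.0556 by limma). The count was 3 without seed coat replicate 1, and the call on AGL62 was lost in 5 of the 16 fits that left out 1 array.

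Against the embryo proper, the other product of fertilisation, endosperm was higher for 4 of the 9 genes and lower for none. Of all tested probe sets 8.35% were called higher and 5.40% lower. AT4G36590 was higher by 3.35 ± 0.61 (adjusted p = 3.33e-04) and AGL28 by 2.84 ± 0.54 (log2, SE, adjusted p = 6.07e-04, limma). AGL92 was at least 2.65-fold higher (adjusted p = 0.00809 by limma) and AGL62 at least 2.32-fold higher (adjusted p = 0.0402 by limma). All 7 endosperm arrays lay above both embryo proper arrays for these 4 genes and for AGL61, against 14.1% of all tested probe sets. Part of this order lies under background: AGL61 and AGL62 were under their bounds on both peripheral endosperm arrays and both embryo proper arrays. The bounds themselves were 33.5 and 31.1 on the embryo proper arrays and 48.2 to 161 on the endosperm arrays. The members' median was 1.45, against 0.29 over all. AGL61, tested only through chalazal endosperm, adds no support to that count of genes or to the median. Nor does AGL89, which passed the filter partly through that region, add support to the median. None of the 7 genes still tested was called when the chalazal endosperm arrays were left out (AGL61 and AGL89 did not pass the filter), where AT4G36590 had 2.03 (adjusted p = 0.0509 by limma). The count was 1 without embryo proper replicate 1 and 2 without embryo proper replicate 2, and the call on AGL62 was lost in 8 of the 16 fits that left out 1 array. Without centring 1110 probe sets were called higher and 1716 lower, and with quantile normalization 1105 and 1344, against 1627 and 1052. In both settings the call on AGL62 was lost (adjusted p = 0.0792 and 0.0770 by limma), as it was without the filter (adjusted p = 0.0627 by limma).

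Between micropylar and peripheral endosperm limma called none of the 9 genes, and none had an unadjusted p below 0.05. Of all tested probe sets 1.01% were called in either direction and 8.31% had an unadjusted p below 0.05. The differences ran from -1.36 for AGL92 to 1.00 for AT4G36590 on the log2 scale, and the intervals of both included 0. For AT4G36590, AGL62 and AGL82 both micropylar endosperm arrays were above both peripheral ones, against 20.0% of all tested probe sets, and for AGL92 both were below, against 22.6%. Chalazal seed coat, the maternal tissue that adjoins the chalazal endosperm, was set against the rest of the seed coat. AGL28 alone was called, at least 1.30-fold higher in chalazal seed coat (adjusted p = 0.0230 by limma), when 5.21% of all tested probe sets were called higher and 5.64% lower. Both seed coat arrays were under their bounds. For 5 genes (AGL28, AGL62, AGL82, AGL89 and AGL96) all 3 chalazal seed coat arrays exceeded both seed coat arrays, against 18.6% of all tested probe sets. AGL89 passed the filter partly through a chalazal seed coat array and adds no support to this count. Much of this order lies under background. AGL62 was under its bound on all 5 of these arrays, and AGL82 and AGL89 were above it on only 1, of chalazal seed coat. The call on AGL28 was lost without chalazal seed coat replicate 2 (adjusted p = 0.0685) and without either seed coat array (adjusted p = 0.148 and 0.146 by limma), and with an offset of 100 (adjusted p = 0.103).

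Whether the chalazal difference was larger in endosperm than in seed coat was tested as a difference of differences, a contrast added after the data had been seen. AT4G36590 had 3.13 ± 0.90 (log2, SE, adjusted p = 0.0138 by limma). Both of its seed coat arrays were under their bounds, so its difference within the seed coat has no exact size, and neither has this value. AGL96 had -2.51 ± 0.90 (adjusted p = 0.0488 by limma), where all 3 chalazal endosperm arrays and both seed coat arrays were under their bounds, so this too is the model's value and no exact size. AGL28 had 1.94 with a 95% interval of 0.29 to 3.59 and did not pass (adjusted p = 0.0908 by limma). Of all tested probe sets 10.7% were called higher and 9.25% lower. Both calls were lost with an offset of 1 and without seed coat replicate 1, and that on AGL96 was lost in 13 of the 16 fits that left out 1 array.

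Whole seeds were set against the unweighted mean of the 6 compartments. Limma called none of the 9 genes, and 1 (AGL96) had an unadjusted p below 0.05. Of all tested probe sets 3.57% were called in either direction and 16.3% had an unadjusted p below 0.05. The differences ran from -1.26 for AGL96 to 0.07 for AGL82, with a members' median of -0.36, against -0.23 over all tested probe sets. AGL28 read 234 and 76.0 in whole seeds, above both seed coat arrays and below every chalazal endosperm array.

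**Figure D3:**
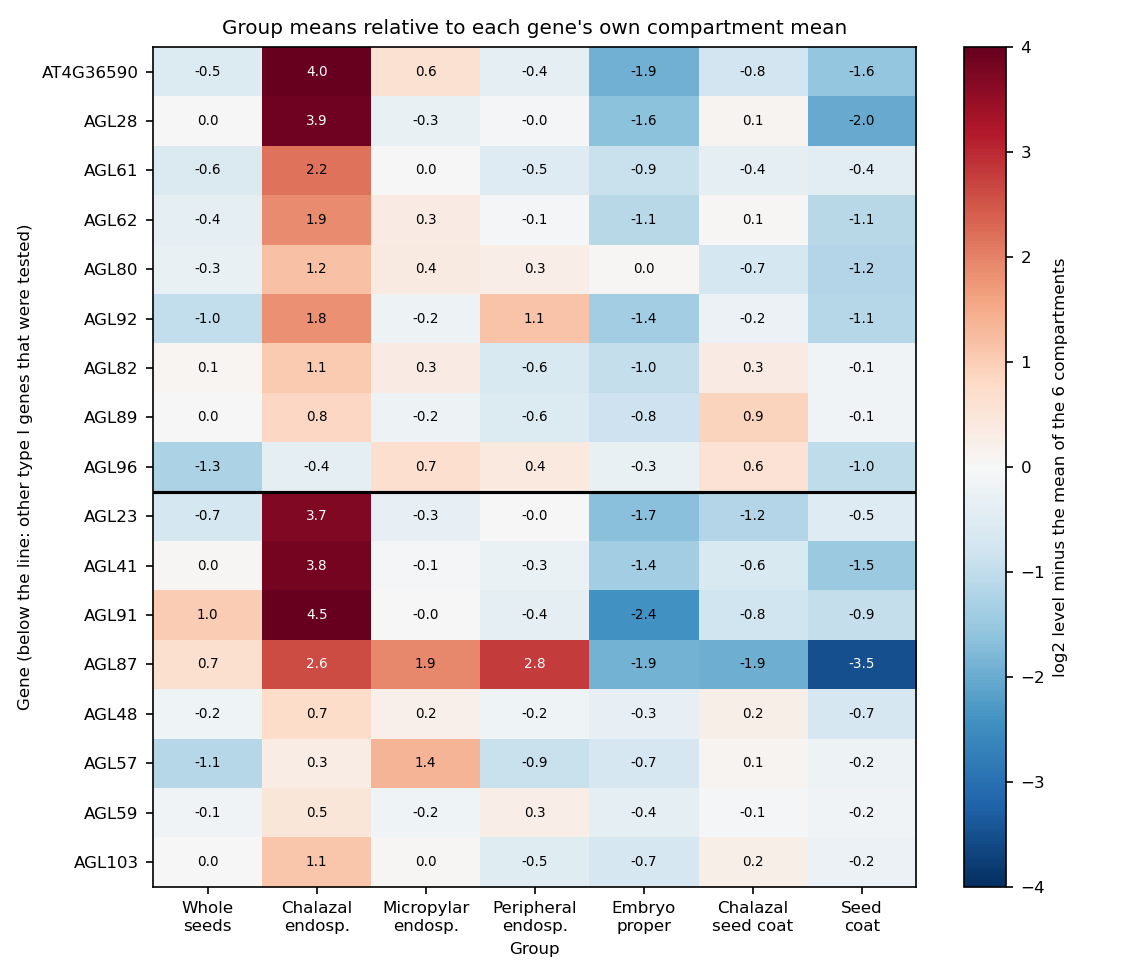
Mean log2 level of each group minus the mean of that gene's 6 compartment means, for the 9 genes and, below the line, the 8 other type I genes that were tested. Chalazal endosperm is the highest compartment for 7 of the 9 and for 6 of the 8, against 33.5% of all tested probe sets. Of the 7, AGL61 was tested only through that region. Of the 6, AGL48, AGL59 and AGL103 did not pass the test of chalazal minus other endosperm. AGL87 is high in all 3 endosperm regions.

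Over the 15 pairs of compartments, 35 of 135 gene and pair combinations passed the test, against 21.3% over all tested probe sets. Of these, 28 were among the 45 that involve chalazal endosperm, where 34.2% passed over all. In that set the calls of AGL28, AGL61 and AT4G36590 covered 5 of 5 pairs, those of AGL62 and AGL92 4 of 5, those of AGL80 and AGL82 2 of 5, that of AGL89 1 of 5 and AGL96 had 0. All 28 were higher in chalazal endosperm. The 5 calls of AGL61, which was tested only through that region, add no support. Nor does the 1 call of AGL89, which did not pass the filter without the arrays of that region. Without the filter on low signal 29 of the 135 combinations passed, and AGL61 kept 5 of 5, AGL62 had 3, AGL82 had 1 and AGL89 had 0. The genes called were 4 against micropylar endosperm (14.9% of all tested probe sets called higher), 5 against peripheral endosperm (14.5%) and 7 against embryo proper (23.7%). They were 6 against chalazal seed coat (19.7%) and 6 against seed coat (19.2%). AGL61 is in each of these counts and AGL89 in that against embryo proper, and neither adds support to them. The other 7 calls were spread over few pairs. AT4G36590 was at least 2.41-fold higher in micropylar endosperm than in seed coat (adjusted p = 0.0465 by limma), where 9.03% of all were called higher. In peripheral endosperm AGL28 and AGL92 were higher than in seed coat (9.10% of all), AGL28 by at least 1.18-fold (adjusted p = 0.0393 by limma), and AGL92 was higher than in embryo proper (2.77% of all). AGL28 and AGL89 were lower in embryo proper than in chalazal seed coat (13.1% of all called lower), AGL28 with a log2 difference of -1.74 ± 0.62 (SE, adjusted p = 0.0371 by limma). The remaining call was that of AGL28 between the seed coat regions.

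**Figure D4:**
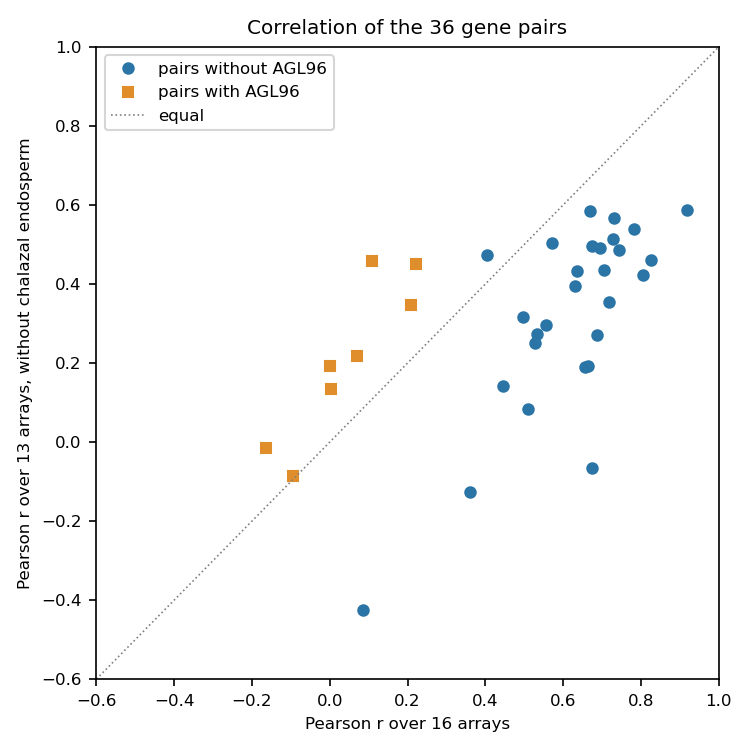
Pearson correlation of the 36 pairs among the 9 genes over all 16 arrays (horizontal) and over the 13 arrays that are not chalazal endosperm (vertical). Of the 36 pairs, 27 lie below the line of equality, and the pairs with AGL96 lie at the left, between -0.164 and 0.222.

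The genes were also compared with each other over the arrays. Pearson correlations on the centred log2 scale over 16 arrays ran from -0.164 to 0.920 with a median of 0.601 over the 36 pairs. AGL28 and AT4G36590 were most alike (0.920), followed by AGL62 with AT4G36590 (0.827) and AGL62 with AGL28 (0.805). The partners AGL61 and AGL80 had 0.445. Over the 13 arrays other than chalazal endosperm the median was 0.351 with a range of -0.425 to 0.587, AGL28 and AT4G36590 had 0.587, and AGL61 and AGL80 had 0.143. The 8 pairs with AGL96 ran from -0.164 to 0.222 over 16 arrays and from -0.0862 to 0.458 over 13. The arrays of a group share their tissue and many values lie under background, so these coefficients are descriptions without a test.

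Among the 11274 tested probe sets that name 1 gene, the probe set most like each of the 9 over the 16 arrays was found. For AGL28 it was AT5G09490 (r = 0.971), for AT4G36590 it was AT4G39590 (0.964), and for AGL61 it was AT1G55220 (0.935). AGL62 was most like AT2G17030 (0.908), AGL80 like AT4G10320 (0.914) and AGL92 like AT2G47350 (0.909). AGL82 was most like AT2G04720 (0.857), AGL89 like AT5G03460 (0.892) and AGL96 like AT3G21040 (0.750). No other type I gene was among the 3 most similar of any of the 9. Over the 13 arrays without chalazal endosperm these 9 coefficients were 0.661 to 0.868, and AT3G22700, ranked 3 for AGL61 at 0.931, had 0.227.

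Of 53 other type I MADS-box symbols, 15 were named by a probe set of 1 gene and 8 of these were tested. In chalazal minus other endosperm 3 of the 8 were higher and none was lower, when 19.6% of all tested probe sets were called higher and 18.0% lower. Whether any of the 8 passed the filter only through chalazal endosperm was not examined. AGL91 (M-alpha) read 3598, 4624 and 1727 in chalazal endosperm, against 67.3 and 227 in micropylar and 132 and 63.4 in peripheral endosperm, a log2 difference of 4.74 ± 0.56 (SE, adjusted p = 1.16e-07 by limma). AGL41 (M-gamma) had 3.99 ± 0.51 (adjusted p = 4.16e-07) and AGL23 (M-alpha), which acts in embryo sac development, 3.86 ± 0.53 (adjusted p = 1.54e-06, limma). AGL48, AGL57, AGL59 and AGL103 did not pass, with 0.04 to 1.35. AGL87 (M-gamma) differed from the 9 genes in being high throughout the endosperm: it read 3973, 4497 and 5669 in chalazal, 4670 and 2627 in micropylar and 7066 and 6056 in peripheral endosperm. It read 331 and 195 in embryo proper, 111, 447 and 269 in chalazal seed coat and 38.1 and 83.2 in seed coat. Its endosperm minus seed coats difference was 5.17 ± 0.34 (adjusted p = 2.85e-12 by limma), with all 7 endosperm arrays above all 5 seed coat arrays, and its chalazal minus other endosperm difference was 0.23 (adjusted p = 0.700 by limma). The 7 genes that were named and not tested were AGL29, AGL46, AGL78, AGL86, AGL95, AGL99 and AGL101.

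Of 15 Polycomb and imprinting regulators of these genes, 2 were named. DME, the DNA demethylase of the central cell, read 6.53, 16.8 and 85.8 in chalazal endosperm, against 985 and 1615 in micropylar and 928 and 816 in peripheral endosperm. It was lower in chalazal endosperm, with a log2 difference of -3.94 ± 0.48 (SE, adjusted p = 1.90e-07 by limma) for its brightest of 3 probe sets, and the other two gave -2.88 and -4.02. ADM, a gene linked to the seed failure of crosses between ploidies, read 245, 396 and 539 in chalazal endosperm, against 1.99 and 57.7 in micropylar and 37.0 and 92.9 in peripheral endosperm. It was higher by 2.81 ± 0.58 (adjusted p = 3.59e-04 by limma). Of 19 endosperm growth and cellularisation genes 4 were named and 3 tested. In chalazal endosperm IKU1 was higher by 2.47 ± 0.45 (adjusted p = 7.82e-05 by limma), and SHB1 did not pass. SWEET15, a sucrose exporter annotated here as SAG29, was lower than the mean of the other 2 regions by at least 2.60-fold (adjusted p = 0.00164 by limma). It averaged 1315 in micropylar, 97.7 in peripheral and 52.7 in chalazal endosperm. Chalazal endosperm was called lower against micropylar endosperm and not against peripheral endosperm.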

How the data were processed

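Per the labels' protocols, regions were cut from paraffin sections, and RNA was amplified as cDNA, labelled with biotin and hybridised to Affymetrix ATH1 arrays. The deposited intensity values were made with GCOS, per the submitters' processing notes (version and settings not given in the sources used here), and amplification can change the proportions of transcripts. The table holds 22810 probe sets, 64 of them controls. Values became log2(signal + 30.2143), an offset set at the 25th percentile of the Arabidopsis values, and each array was centred on its median over the tested probe sets, those above the 40th percentile of an array on at least 2 of 16. One model with 7 group means was fitted across 19475 probe sets with limma 3.58.1 in R 4.3.3 (empirical Bayes with an intensity trend), after the code had been tested on simulated data. Contrasts weighted regions equally, tests were two-sided, and Benjamini-Hochberg adjustment ran within each contrast at 0.05. A fold is "at least" where every array on the low side was at or under its background bound (95th percentile of 27 Bacillus controls), and is then taken against that bound. A difference with some such arrays is the model's value only.

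The members, lists and tests were chosen with earlier results of these data known. Named were all 9 members, other type I genes with a probe set of their own, up to 4 genes per list and comparison by p, and for each member the 3 most correlated probe sets, of which not all are printed. Names come from the platform annotation and the TAIR10.1 gene table. No coordinates or sequences are printed, since no genome build is named for the array and no sequences were used here. Alternatives were no centring, quantile normalization, offsets of 1 and 100, no filter, array weights, no intensity trend, a replicate block, and leaving out whole seeds, chalazal endosperm or each array. Their effect is given at the end.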

Additional observations from a re-analysis of the deposited data

Results flagged for a closer look

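The chalazal difference within the endosperm (chalazal minus other endosperm) differed from the chalazal difference within the seed coat (chalazal seed coat minus seed coat) for 2 of the 9 genes and 3 other type I genes. The test was limma's difference of the 2 differences, a contrast chosen after seeing the data and adjusted over all 19475 tested probe sets. The log2 values were 3.13 for AT4G36590 (adjusted p = 0.0138 by limma) and -2.51 for AGL96 (adjusted p = 0.0488 by limma, lost in 13 of 16 fits without 1 array). They were 4.53 for AGL23 (adjusted p = 2.42e-04), 4.61 for AGL91 (adjusted p = 3.37e-04) and 3.14 for AGL41 (adjusted p = 0.00516 by limma). Both seed coat arrays of AT4G36590, AGL96, AGL91 and AGL41, all 3 chalazal endosperm arrays of AGL96 and all 3 chalazal seed coat arrays of AGL41 were under their bounds, so these are the model's values and no exact sizes. Of all tested probe sets 10.7% were called higher and 9.25% lower by the same test. No group had the 4 arrays that a check for single outlying arrays needs.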

How the results depend on the processing

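Of 19 differences called for single genes, the alternatives gave 482 values, of which 427 kept the call, 55 lost it and none changed sign. The chalazal minus other endosperm calls of AGL28 (3.34 to 4.58), AT4G36590 (3.37 to 4.43) and AGL61 passed under all alternatives in which they were tested; AGL61 did not pass the filter without chalazal endosperm replicate 1 or 3. That of AGL62 was lost with an offset of 1 (adjusted p = 0.144 by limma). AGL62 also lost its calls in endosperm minus seed coats and in endosperm minus embryo proper without centring. Without the chalazal endosperm arrays the members called were 1 in endosperm minus seed coats and 0 in endosperm minus embryo proper, of 7 tested. With an offset of 100, 0 were called in chalazal seed coat minus seed coat. The difference of differences gave 0 calls with an offset of 1 and 1 without the whole seed arrays. AGL82 in endosperm minus seed coats turned to -0.0365 without centring and -0.24 without the chalazal endosperm arrays, and AGL96 in endosperm minus embryo proper to -0.31 without embryo proper replicate 1 (-0.31 to 1.39 with an array left out). In each of these 3 the difference had not passed the test. The causes were not tested.

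Leaving out each array in turn gave 3 to 7 members called in chalazal minus other endosperm (3 to 6 higher and 0 to 1 lower, the lower one AGL96 at -1.54 without micropylar endosperm replicate 1), 3 to 6 in endosperm minus seed coats, 1 to 5 in endosperm minus embryo proper, 0 to 1 in chalazal seed coat minus seed coat and 0 to 3 in the difference of differences. It gave 29 to 36 over the pairs, and 0 to 0 in both micropylar minus peripheral endosperm and whole seeds minus compartments. Over all probe sets, endosperm minus embryo proper had 2679 calls, against 6637 with array weights, 1480 without chalazal endosperm and 777 to 3089 with an array left out. Micropylar minus peripheral endosperm had 197, against 64 with an offset of 1, 430 with array weights and 20 to 240. Whole seeds minus compartments had 696, against 412, 1446 and 170 to 860. Chalazal seed coat minus seed coat had 2112, against a range of 975 to 2462, and the difference of differences 3886, against 2437 to 4163. Whole seeds minus compartments split into 514 higher and 182 lower, against 882 and 61 without centring and 759 and 111 with quantile normalization.

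Samples that share a replicate number deviated from their group means with correlations of -0.0440 to 0.206 (median -0.00168, 43 pairs), so the numbers were not taken to pair samples. With the replicate number as a block, 7 members were called in chalazal minus other endosperm, with AGL82 (adjusted p = 0.0349), AGL89 (0.0438) and AGL92 (0.0244 by limma) added, and no other member call in the 6 comparisons changed. Signal over background limits most values: 4 of the 9 genes (AGL61, AGL62, AGL89 and AGL96) were above the bound on 5 or fewer of 16 arrays, and a difference among regions where a gene was under it has no measured size.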

Other observations

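Probe sets that name more than 1 gene were left out of the members and lists, and 3 of them name a listed type I symbol. The probe set 264214_s_at, which names a pair of M-gamma genes, read 106205, 114843 and 62614 in chalazal endosperm, 4797 and 2877 in micropylar endosperm, 3241 and 1824 in peripheral endosperm and 54.8 and 514 in embryo proper. It read 4738, 12015 and 9702 in chalazal seed coat, 303 and 221 in seed coat, and 9755 and 16831 in whole seeds, above the background bound on all 16 arrays. The probe set 246836_s_at read 374, 300 and 161 in chalazal endosperm and 1.32 to 85.7 on the other arrays, of which 1, of peripheral endosperm, was above its bound. The probe set 263735_s_at had its highest values in seed coat, 561 and 587, and read 21.7, 74.5 and 107 in chalazal endosperm.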
